A study of Homo sapiens with 12 samples.

Results

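The data describe 10 genes of bone morphogenetic protein (BMP) signalling and hepcidin control in HepG2 cells, a human liver cancer line that keeps many hepatocyte functions. They were the BMP receptor BMPR2, the signal transducer SMAD1, the inhibitory SMAD6 and SMAD7, the BMP target genes ID1, ID2 and ID3, the iron regulators TFR2 and TMPRSS6, and HAMP, which encodes hepcidin. The genes were chosen by symbol from the deposited count table, with their levels in these 12 libraries already known, and all 10 were present among its 16389 genes. Their differences and FDRs are therefore a description of the fit over all genes and not independent evidence. Messenger RNA was sequenced from 4 groups of 3 libraries. Cells were grown for 48 h at 5.5 mM glucose (LG) or at 20 mM glucose (HG). LGV and HGV were the same 2 media followed by 12 h with 1 mM valproic acid (VPA), an inhibitor of histone deacetylases. No group carried a genetic change, and all came from a single cell line, so no variation between donors was sampled. When the untreated cells were harvested relative to those 12 h is not given in the sources used here.

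BMP ligands bind receptor complexes of type I and type II, BMPR2 being a type II receptor, and the complex phosphorylates SMAD1, SMAD5 and SMAD9. These enter the nucleus with SMAD4 and switch on genes such as ID1 and ID3, whose products block basic helix-loop-helix transcription factors, and SMAD6 and SMAD7, which damp the signal. In hepatocytes the same route, fed by BMP6 and BMP2 from neighbouring cells and by the co-receptor hemojuvelin, drives hepcidin, the hormone that limits iron entry into blood by removing the exporter ferroportin. TFR2 is a sensor of iron-loaded transferrin that promotes hepcidin, and the membrane protease TMPRSS6 represses it.

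Bases upstream of the start site are shown for HAMP and for 3 other BMP targets, because HAMP, ID1 and ID3 carried the largest differences between HGV and LGV and SMAD6 held a SMAD palindrome. The sequences are the 250 bases before the start in RefSeq on GRCh38.p14, read 5′ to 3′ on the gene's strand, whereas the counts were made on GRCh37. Capitals mark the SMAD GC box GGCGCC, the SMAD palindrome GTCTAGAC and the STAT motif TTCNNNGAA, and the E-box CACGTG was also searched. All were searched on both strands, and no matches overlapped in the sequences shown.
HAMP (chr19:35282278-35282527, plus strand): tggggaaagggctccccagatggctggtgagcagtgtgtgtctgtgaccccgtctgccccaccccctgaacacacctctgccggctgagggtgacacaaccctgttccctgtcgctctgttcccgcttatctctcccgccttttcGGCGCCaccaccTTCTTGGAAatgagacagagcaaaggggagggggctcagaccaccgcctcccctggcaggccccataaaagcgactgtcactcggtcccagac
ID1 (chr20:31605039-31605288, plus strand): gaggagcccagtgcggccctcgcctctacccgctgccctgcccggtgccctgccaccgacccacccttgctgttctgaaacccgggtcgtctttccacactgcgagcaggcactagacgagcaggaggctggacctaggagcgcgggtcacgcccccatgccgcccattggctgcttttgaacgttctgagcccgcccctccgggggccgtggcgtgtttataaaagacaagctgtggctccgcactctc
ID3 (chr1:23559502-23559751, minus strand): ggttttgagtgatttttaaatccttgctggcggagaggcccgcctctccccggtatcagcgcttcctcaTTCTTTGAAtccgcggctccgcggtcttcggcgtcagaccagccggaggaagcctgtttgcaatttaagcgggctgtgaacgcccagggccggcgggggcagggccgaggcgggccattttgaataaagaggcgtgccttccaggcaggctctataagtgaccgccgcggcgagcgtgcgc
SMAD6 (chr15:66701986-66702235, plus strand): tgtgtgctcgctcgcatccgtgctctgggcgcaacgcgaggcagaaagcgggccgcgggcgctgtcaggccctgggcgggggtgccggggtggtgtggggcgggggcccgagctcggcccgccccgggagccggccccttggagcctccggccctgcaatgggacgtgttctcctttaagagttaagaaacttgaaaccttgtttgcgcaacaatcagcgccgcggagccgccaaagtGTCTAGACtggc
In HAMP the GC box lay 105 to 100 bases and the STAT motif 93 to 85 bases before the start. ID3 held a STAT motif 181 to 173 bases upstream and SMAD6 the palindrome 12 to 5 bases upstream. The windows of ID1, ID2 and SMAD7 held none of these letters, that of BMPR2 held a GC box 147 to 142 bases upstream, and among the 5 SMAD1 start sites there were 4 GC boxes and 1 E-box. Of 35116 promoters of the same length, 16.4% held the GC box, 0.182% the palindrome, 6.57% the STAT motif and 6.34% the E-box. A match gives only the presence of these letters. Promoters of 8 of the 10 genes were in the RefSeq table, and those of TFR2 and TMPRSS6 were not used here.

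The libraries held between 29798442 and 45572694 assigned reads, and levels are given as CPM, read counts relative to library size, after scaling by the trimmed mean of M values (TMM). All 8 hepatocyte markers listed were in the table, and their summed level was 39671 to 40624 CPM in LGV and 46319 to 60846 CPM in the other groups. Single markers did not all follow the sum. HNF4A was lower with VPA in both media, with means of 414, 404, 247 and 293 CPM in LG, HG, LGV and HGV. TTR, at 163, 139, 139 and 198 CPM in the same order, was highest in HGV. Of 8 markers of other cell types, 3 were in the table (KRT19, VWF and COL1A1), and their sum was 67.0 to 106 CPM without VPA and 121 to 216 CPM with it. KRT19 made up most of that sum, with means of 96.4, 77.7, 156 and 180 CPM in LG, HG, LGV and HGV. COL1A1 was also higher with VPA in both media, at 0.226, 0.339, 1.09 and 1.97 CPM in the same order. VWF was at 2.47, 2.65, 2.24 and 2.98 CPM, with overlapping libraries, its mean lower with VPA in LG and higher in HG. The part of the markers in the results below was not tested. LG replicate 3 stood apart from its group: relative to the mean of LG replicates 1 and 2 it had 6.95 times the HAMP level, 2.96 times that of ID1 and 2.05 times that of ID3. TXNIP, a gene induced by glucose, was at 6.58, 6.21 and 6.31 CPM in LG replicates 1, 2 and 3 and at 107 CPM or more in every HG library. By this gene LG replicate 3 was like the other LG libraries, but by other genes named below it was not. CP was at 81.0, 98.7 and 159 CPM in LG replicates 1, 2 and 3 and at 220 to 307 CPM in HG. SMAD9 was at 6.84, 6.41 and 10.7 CPM and at 10.7 to 13.5 CPM in HG. TFRC went the other way, at 292, 376 and 412 CPM and at 211 to 248 CPM in HG. Why LG replicate 3 differed was not tested. For the 10 genes, differences that use the LG group are given with and without that library. It was picked by its levels of these same genes, and was the highest LG library for all of them except TFR2 and BMPR2. Leaving it out therefore had to raise the HG against LG values of all but TFR2 and BMPR2. FDRs and calls without it are no added support. Because RNA was measured in bulk, a change in the number of cells expressing a gene and a change in RNA per cell cannot be told apart.

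HAMP showed the widest range of the 10 genes (chromosome 19, 35771619 to 35776046, plus strand, GRCh37). In LG it was at 0.748, 0.449 and 4.16 CPM in replicates 1, 2 and 3, from 20, 18 and 163 reads. HG libraries held 5.17, 8.55 and 7.17 CPM. With VPA, LGV libraries held 1.08, 0.422 and 0.374 CPM, from 36, 13 and 14 reads. HGV libraries held 17.9, 19.5 and 10.6 CPM. Every HG library lay above every LG library and every HGV library above every HG library, whereas LG and LGV overlapped. High glucose raised HAMP, with a log2 fold change of 1.95 ± 0.47 (SE, n = 3 per group, edgeR FDR 0.00564), and by 3.61 ± 0.31 without LG replicate 3 (FDR 4.49e-08). VPA raised HAMP in HG by 1.20 ± 0.23 (edgeR FDR 0.00106). In LG the corresponding value was -1.53 ± 0.67 (edgeR FDR 0.0806), and 0.12 ± 0.48 without LG replicate 3 (FDR 0.867). It was called lower without LG replicate 2 (-2.01, FDR 0.00693), without LGV replicate 1 (-2.17, FDR 0.0408) and in a single fit of all libraries (-1.55, FDR 0.0426). Under VPA the glucose difference in HAMP, HGV against LGV, was 4.66 ± 0.32 or 25.3-fold (edgeR FDR 1.52e-08), and no LG library enters that value. The call for HG against LG was lost without LG replicate 1 (1.64, FDR 0.0671) and with the DESeq2 Wald test (FDR 0.104).

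**Figure D1:**
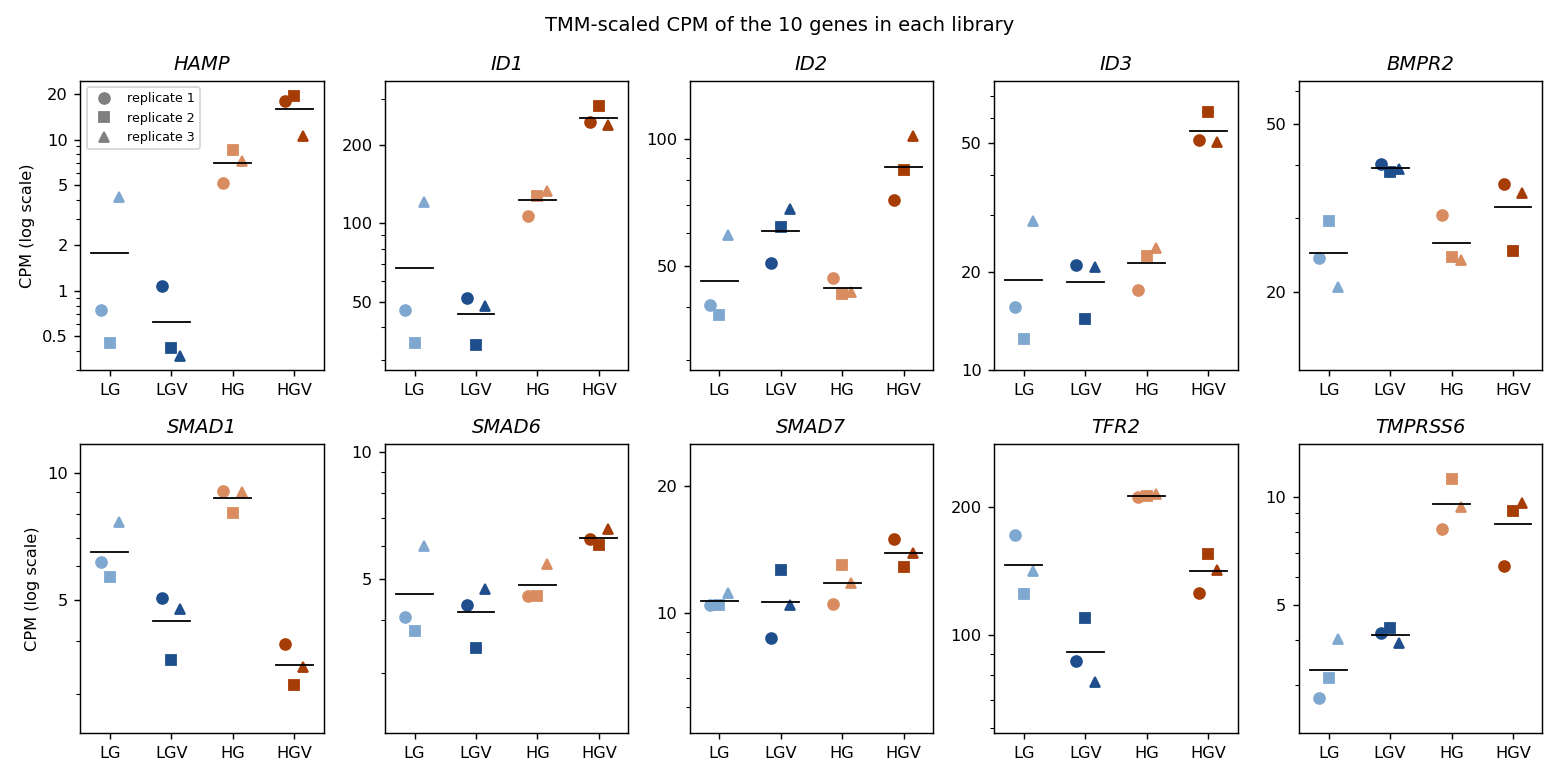
TMM-scaled CPM on a log axis for each of the 10 genes, with 1 point per library, the symbol giving the replicate number and the horizontal bar the mean of 3 libraries. HAMP, ID1 and ID3 are highest in the 3 HGV libraries, and LG replicate 3 (triangle) lies above the other LG libraries for every gene except TFR2 and BMPR2.

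The ID genes encode small proteins that bind helix-loop-helix factors without binding DNA. ID1 (chromosome 20, 30193086 to 30194318, plus strand) was at 46.7, 34.8 and 121 CPM in LG and at 106, 127 and 133 CPM in HG. LGV libraries held 51.9, 34.2 and 48.2 CPM, and HGV libraries 243, 281 and 238 CPM. HGV stood above all other libraries, and HG overlapped LG only through LG replicate 3. ID1 rose with high glucose by 0.88 ± 0.28 on the log2 scale (edgeR FDR 0.0298), and by 1.62 ± 0.15 without LG replicate 3 (FDR 1.63e-07). That call was lost when LG replicate 1 (0.70, FDR 0.187), LG replicate 2 (0.59, FDR 0.118), HG replicate 1 (0.99, FDR 0.0827) or HG replicate 3 (0.85, FDR 0.0740) was left out, with library sizes as the only scaling (FDR 0.0509) and with the DESeq2 Wald test (FDR 0.227). VPA raised ID1 in HG by 1.05 ± 0.12 (edgeR FDR 1.29e-05). In LG the difference was -0.58 ± 0.33 (edgeR FDR 0.177), and 0.17 ± 0.17 without LG replicate 3 (FDR 0.470). Without LG replicate 2 it was called lower, at -0.90 (FDR 0.0119). HGV exceeded LGV by 2.49 ± 0.15, or 5.60-fold (edgeR FDR 7.00e-09).

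ID3 (chromosome 1, 23884417 to 23885992, minus strand) was at 15.6, 12.5 and 28.8 CPM in LG, at 17.6, 22.5 and 23.7 CPM in HG and at 21.1, 14.3 and 20.7 CPM in LGV, groups that overlapped each other. The 3 HGV libraries held 51.4, 62.3 and 50.3 CPM and lay above all of these. ID3 rose with VPA in HG by 1.36 ± 0.14 (edgeR FDR 6.40e-06), and HGV exceeded LGV by 1.53 ± 0.15 (FDR 9.93e-07). Its difference between HG and LG was 0.19 ± 0.23 (edgeR FDR 0.580), and without LG replicate 3 it passed the threshold at 0.63 ± 0.18 (FDR 0.0101). In LG, the VPA difference in ID3 was -0.01 ± 0.25 (FDR 0.972), and 0.45 ± 0.19 without LG replicate 3 (FDR 0.0674).

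ID2 (chromosome 2, 8818975 to 8824591, plus strand) differed from ID1 and ID3 in its pattern. It was at 40.6, 38.4 and 59.4 CPM in LG and at 46.9, 42.9 and 43.5 CPM in HG, values that overlapped. LGV libraries held 51.0, 62.0 and 68.4 CPM and HGV libraries 71.6, 84.7 and 101 CPM. HG against LG gave -0.03 ± 0.16 (edgeR FDR 0.897), and 0.20 ± 0.14 without LG replicate 3 (FDR 0.287). VPA raised ID2 in HG by 0.95 ± 0.13 (edgeR FDR 6.74e-05). In LG its difference with VPA was 0.40 ± 0.17 (FDR 0.0675), which passed the threshold without LG replicate 3 (0.64, FDR 0.00111). HGV exceeded LGV by 0.49 ± 0.14 (edgeR FDR 0.0105), a call that was lost without HGV replicate 3 (0.35, FDR 0.0705). Exons of ID2 overlap the antisense gene ID2-AS1. The library kit keeps strand, but the strand setting of the counting is not given in the sources used here, so reads of the antisense gene cannot be told apart from those of ID2.

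SMAD1, the transducer, was lowest in the groups with VPA. It was at 6.13, 5.66 and 7.63 CPM in LG and at 9.03, 8.04 and 9.02 CPM in HG. LGV libraries held 5.04, 3.60 and 4.75 CPM and HGV libraries 3.92, 3.14 and 3.47 CPM. The HG libraries were the highest of the 12, and both VPA groups lay below both untreated groups. SMAD1 (chromosome 4, 146402346 to 146480328, plus strand) fell with VPA in HG, with a log2 fold change of -1.31 ± 0.16 (edgeR FDR 2.27e-05). In LG the VPA difference was -0.53 ± 0.21 (FDR 0.0552), and -0.37 ± 0.22 without LG replicate 3 (FDR 0.202). It was called lower with the likelihood ratio test (FDR 0.0474), the DESeq2 Wald test (FDR 0.0383), no filter (FDR 0.0499), the replicate block (FDR 0.0415) and the single fit of all libraries (FDR 0.0236), and without LG replicate 2 (-0.62, FDR 0.0296). High glucose gave 0.44 ± 0.18 (edgeR FDR 0.0799), which passed the threshold without LG replicate 3 (0.59, FDR 0.0197). Its exons overlap the antisense gene SMAD1-AS1, with the same limit as for ID2.

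The inhibitory SMADs differed less. SMAD6 (chromosome 15, 66994574 to 67075187, plus strand) was at 4.08, 3.77 and 6.0 CPM in LG, 4.56, 4.58 and 5.43 CPM in HG, 4.35, 3.44 and 4.75 CPM in LGV and 6.22, 6.02 and 6.59 CPM in HGV. The HGV libraries were the highest, with LG replicate 3 just below them. SMAD6 was higher in HGV than in LGV by 0.56 ± 0.19 (edgeR FDR 0.0211), a call that was lost without HGV replicate 1 (FDR 0.0544), HGV replicate 3 (FDR 0.0654) or LGV replicate 2 (FDR 0.116). SMAD7 (chromosome 18, 46446223 to 46477335, minus strand) was at 10.5, 10.4 and 11.1 CPM in LG, 10.5, 13 and 11.8 CPM in HG, 8.73, 12.6 and 10.5 CPM in LGV and 15, 12.8 and 13.9 CPM in HGV. By the quasi-likelihood test no comparison of SMAD7 passed the threshold, and the nearest was HGV against LGV at 0.37 ± 0.16 (edgeR FDR 0.0680), where the groups did not overlap. That difference was called with library sizes as the only scaling (0.47, FDR 0.0321), with the replicate block (FDR 0.0463), in the single fit (FDR 0.0491) and without HGV replicate 2 (0.43, FDR 0.0466) or LGV replicate 2 (0.51, FDR 0.0318). SMAD6 and SMAD7 were not called for HG against LG (0.09 ± 0.22 and 0.16 ± 0.16) or for LGV against LG (-0.13 ± 0.23 and 0.00025 ± 0.17). Without LG replicate 3 these values were 0.34 ± 0.21 and 0.20 ± 0.18, and 0.13 ± 0.23 and 0.05 ± 0.19, again without a call. With library sizes as the only scaling, VPA differences in HG reached the threshold for SMAD6 (0.49, FDR 0.0192) and SMAD7 (0.36, FDR 0.0493), a scaling that moved the median of all genes in that comparison from 0.0247 to 0.146.

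BMPR2 (chromosome 2, 203241050 to 203432474, plus strand) was at 24.1, 29.4 and 20.6 CPM in LG and at 30.5, 24.2 and 23.9 CPM in HG, which overlapped. LGV libraries lay close together at 40.2, 38.5 and 39.2 CPM, above every other library, and HGV libraries were at 36.1, 25.1 and 34.3 CPM. BMPR2 rose with VPA in LG by 0.68 ± 0.14 (edgeR FDR 0.00117), and by 0.58 ± 0.14 without LG replicate 3 (FDR 0.00281). HG against LG gave 0.10 ± 0.16 (FDR 0.672), and -0.01 ± 0.16 without that library. In HG the VPA difference was 0.28 ± 0.15 (FDR 0.157), which passed without HGV replicate 2 (0.43, FDR 0.0140). Its exons overlap ENSG00000289490 on the same strand, and reads of the pair may be shared.

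TFR2 was the only 1 of the 10 genes called in all 4 comparisons. It was at 172, 125 and 141 CPM in LG and at 212, 213 and 215 CPM in HG. LGV libraries held 86.6, 109 and 77.0 CPM and HGV libraries 126, 156 and 142 CPM. HG libraries were the highest and LGV libraries the lowest, and LG and HGV overlapped. TFR2 (chromosome 7, 100218039 to 100240402, minus strand) rose with high glucose by 0.57 ± 0.13 (edgeR FDR 0.00351) and, under VPA, by 0.62 ± 0.14 (FDR 0.00182). VPA gave log2 fold changes of -0.67 ± 0.15 in LG (FDR 0.00245) and -0.60 ± 0.10 in HG (FDR 0.000494). Without LG replicate 3 the values that use LG were 0.55 ± 0.13 for glucose and -0.68 ± 0.16 for VPA, both called.

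TMPRSS6, the repressor of hepcidin, rose with glucose in both settings. It was at 2.77, 3.14 and 4.03 CPM in LG and at 8.15, 11.2 and 9.35 CPM in HG. LGV libraries held 4.20, 4.32 and 3.92 CPM and HGV libraries 6.41, 9.15 and 9.59 CPM. All 6 libraries at 20 mM glucose lay above all 6 at 5.5 mM. The log2 fold change of TMPRSS6 (chromosome 22, 37461476 to 37505753, minus strand) was 1.55 ± 0.21 without VPA (edgeR FDR 4.58e-05) and 1.00 ± 0.19 with it (FDR 0.000454). VPA gave 0.33 ± 0.21 in LG (FDR 0.247) and -0.19 ± 0.18 in HG (FDR 0.413). Without LG replicate 3 the values that use LG were 1.72 ± 0.22 for glucose, called, and 0.51 ± 0.23 for VPA (FDR 0.0895).

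Per kilobase of the canonical transcript, the mean levels in LG ran from ID1 (68.6 ± 47.3 CPM per kb, SD, n = 3) over TFR2 (50.6 ± 8.32), ID2 (35.5 ± 8.89) and ID3 (20.0 ± 9.12) to HAMP (4.40 ± 5.08), SMAD7 (3.20 ± 0.118), SMAD1 (2.16 ± 0.343), BMPR2 (2.05 ± 0.369), SMAD6 (1.21 ± 0.316) and TMPRSS6 (1.02 ± 0.199). Neighbours in this order had overlapping spreads (mean ± SD) except HAMP and ID3 and, lower down, SMAD7 and SMAD1 and BMPR2 and SMAD6, and the spread of HAMP reached down over all genes below it. In HGV, ID1 was at 258 ± 23.6 CPM per kb, and HAMP, at 39.4 ± 11.8, stood near TFR2 at 48.9 ± 5.18. In LGV, HAMP was at 1.54 ± 0.971 CPM per kb, near SMAD1 at 1.49 ± 0.253.

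Between HG and LG, 4 of the 10 genes were called, HAMP, TMPRSS6, ID1 and TFR2, all higher in HG, where 24.7% of 15452 tested genes were called, 12.0% higher and 12.7% lower. Without LG replicate 3 the count was 6, all higher, with ID3 and SMAD1 added, against 34.6% of all genes (17.6% higher, 17.0% lower). With the DESeq2 Wald test 2 remained, TMPRSS6 and TFR2, against 25.0% of genes. Between LGV and LG, BMPR2 was called higher and TFR2 lower, 2 of 10 against 41.6% of genes (21.7% higher, 19.9% lower). Leaving out LG replicate 3 gave 3, BMPR2 and ID2 higher and TFR2 lower, against 39.2% (21.3% higher, 17.9% lower). Between HGV and HG, 6 of 10 were called, against 46.1% of genes. HAMP, ID1, ID2 and ID3 were higher and SMAD1 and TFR2 lower, where 25.8% of genes were higher and 20.2% lower. Between HGV and LGV, 7 of 10 were called, all higher, against 40.7% (21.2% higher, 19.5% lower). The median log2 fold change of the 10 genes was 0.32 for HG against LG, -0.07 for LGV against LG, 0.32 for HGV against HG and 0.59 for HGV against LGV, beside medians over all genes between -0.01 and 0.02. These comparisons share libraries, as the HG libraries enter both HG against LG and HGV against HG, and so are not independent of one another.

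**Figure D2:**
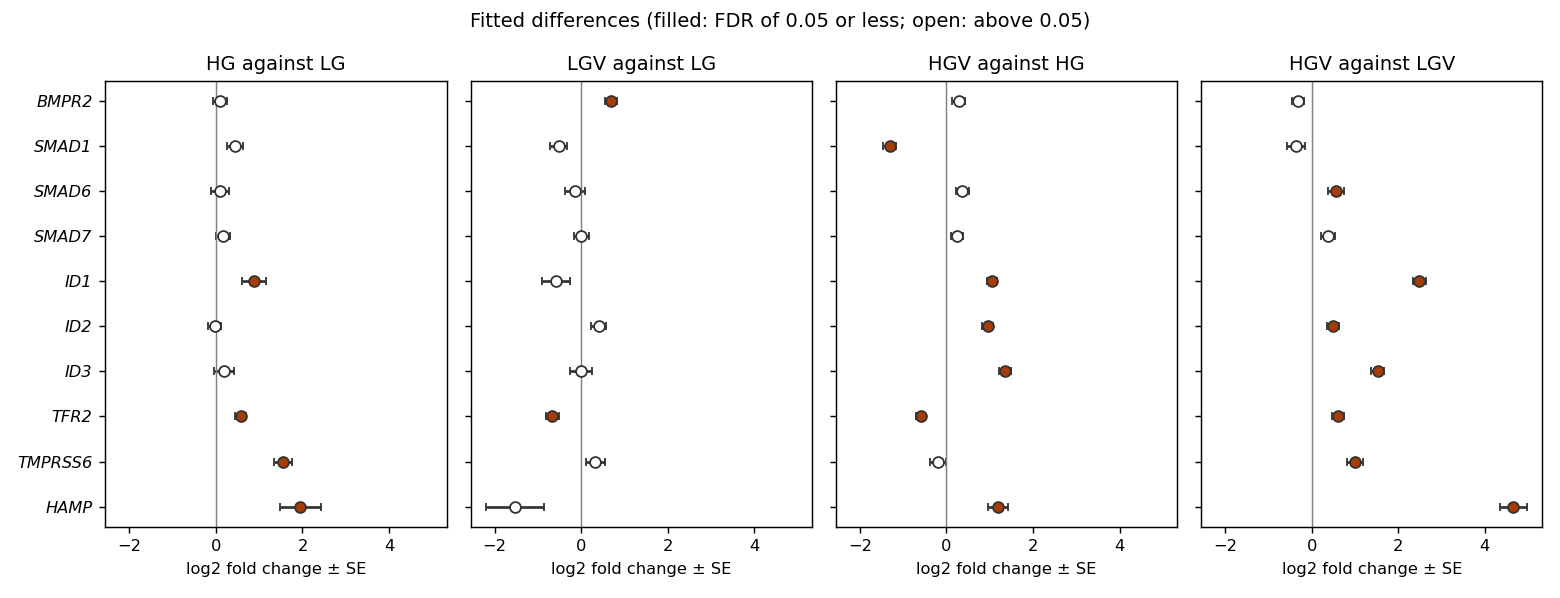
Fitted log2 fold change ± SE of the 10 genes in 4 comparisons of 3 against 3 libraries, with filled points for an FDR of 0.05 or less and open points above it. HAMP has the largest values, at 1.95 for HG against LG and 4.66 for HGV against LGV, and TFR2 is filled in all 4 panels.

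Whether the VPA difference depended on glucose was tested as the interaction, the difference of HGV and HG minus that of LGV and LG. It was 2.75 ± 0.74 for HAMP (edgeR FDR 0.132), 1.64 ± 0.40 for ID1 (FDR 0.0983), 1.38 ± 0.32 for ID3 (FDR 0.0754), 0.56 ± 0.23 for ID2 (FDR 0.332) and -0.78 ± 0.26 for SMAD1 (FDR 0.232). By p-value ID3, ID1 and HAMP ranked 63, 92 and 162 of 16389 genes. None of the 10 genes was called, where edgeR called 7 genes in all, 0.0427%, and 5 of the 10 had an unadjusted p under 0.05, as had 1852 of all genes. The edgeR likelihood ratio test called HAMP, ID1 and ID3 (1.23% of genes), and the DESeq2 Wald test called ID3 (0.988%). Leaving out LG replicate 2 gave calls for the same 3 genes as the likelihood ratio test (HAMP 3.21, ID1 1.93 and ID3 1.58), where 1.33% of genes were called. Leaving out LG replicate 3 gave smaller values, 1.09 ± 0.55 for HAMP, 0.91 ± 0.22 for ID1 and 0.94 ± 0.24 for ID3, with none of the 10 called and 0.410% of genes called.

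**Figure D3:**
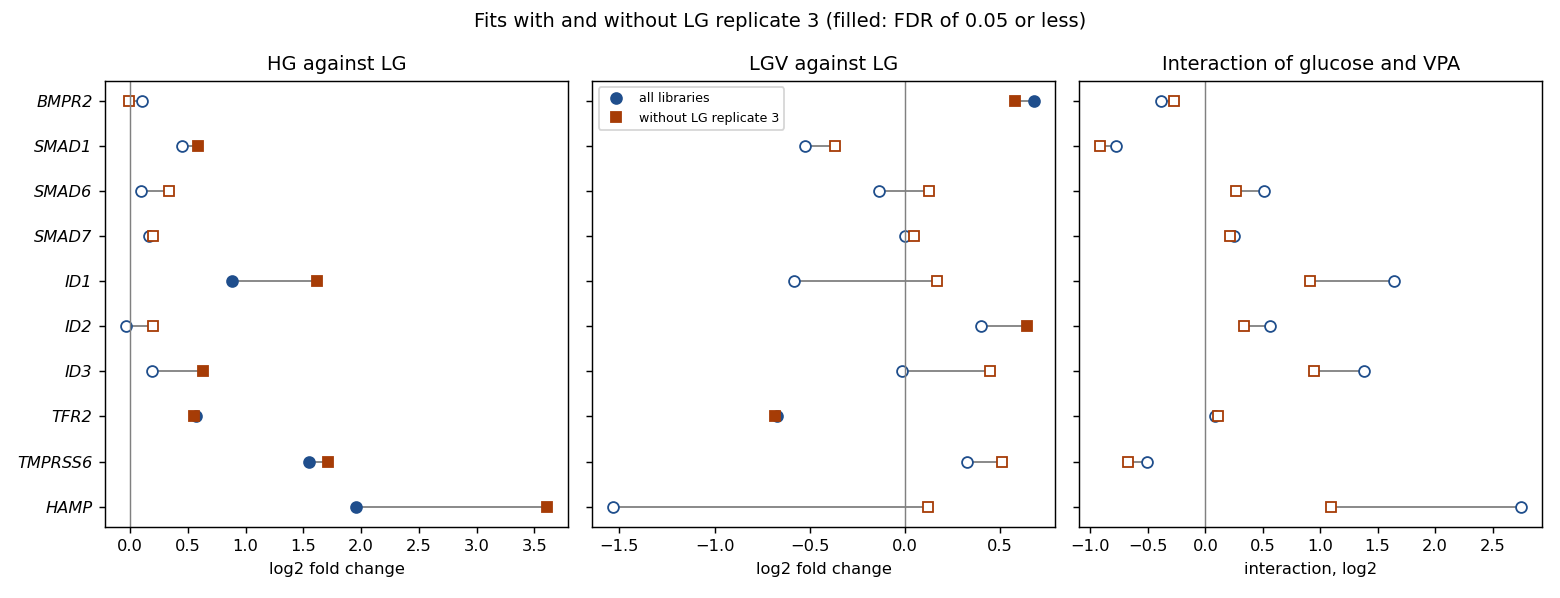
Fitted log2 values of the 10 genes with all libraries (circles) and without LG replicate 3 (squares), for both comparisons that use LG and for the interaction, filled where the FDR was 0.05 or less. HAMP moves from 1.95 to 3.61 for HG against LG and from -1.53 to 0.12 for LGV against LG, whereas TFR2 hardly moves.

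Other genes of BMP signalling and iron control were taken from a list of 66 ordered by role, 55 of them in the table. Between HG and LG, 8 of 48 tested were higher (16.7%, against 12.0% of all genes) and 8 lower (16.7%, against 12.7%). Between LGV and LG, 18 of 52 were higher (34.6%, against 21.7%) and 14 lower (26.9%, against 19.9%). Between HGV and HG 18 of 55 were higher (32.7%, against 25.8%) and 15 lower (27.3%, against 20.2%), and between HGV and LGV 10 of 55 were higher (18.2%, against 21.2%) and 16 lower (29.1%, against 19.5%). Without LG replicate 3 the listed genes called, in either direction, were 23 for HG against LG and 27 for LGV against LG, against 16 and 32 with it. Of all genes, 34.6% and 39.2% were called without that library, against 24.7% and 41.6% with it. In the interaction edgeR called 0 of 55 listed genes, and the likelihood ratio and DESeq2 tests 1 each.

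Among the ligands, BMP6, the main inducer of hepcidin in liver, was at 0.411, 0.349 and 0.306 CPM in LG, at 0.697, 0.778 and 0.840 in HG, at 2.64, 2.96 and 3.42 in LGV and at 7.14, 4.42 and 4.09 in HGV. The 4 groups did not overlap. BMP6 rose with VPA by 3.10 ± 0.29 on the log2 scale in LG and by 2.74 ± 0.26 in HG, and with glucose by 1.15 ± 0.34 without VPA and 0.77 ± 0.23 with it. The glucose call for BMP6 was lost without VPA with the DESeq2 Wald test and when HG replicate 2 (1.13) or HG replicate 3 (1.12) was left out, and with VPA when HGV replicate 1 was left out (0.49). In LGV, where BMP6 was above its HG level, HAMP was at 1.08 CPM or less, and a link between the levels of BMP6 and HAMP was not tested. BMP2, another inducer of hepcidin, had 9 reads in LG and 8 in HG over 3 libraries, and 74 in LGV and 83 in HGV. BMP8A had 9, 12, 76 and 122 reads in LG, HG, LGV and HGV. Between HGV and HG, 4 of 8 ligands tested were called higher and 2 lower, against 25.8% and 20.2% of all genes. BMP4, which signals through the same SMADs, was the ligand with the largest value for HGV against LGV, at -1.19 ± 0.13, and was lower in HG than in LG as well (-0.74 ± 0.13).

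Of 4 receptors in the table besides BMPR2, the type II receptor ACVR2A (0.47 ± 0.13) was among 2 higher and ACVR2B (-0.50 ± 0.11) was lower with VPA in LG. The other higher receptor, ACVR1 (0.40 ± 0.13), was not called without LG replicate 3 (FDR 0.0724). With VPA in HG the single call was ACVR2B, at -0.90 ± 0.16. Of all genes, 21.7% were higher and 19.9% lower with VPA in LG, and 25.8% and 20.2% in HG. ACVR1, a type I receptor used by BMP6, was lower in HG than in LG (-0.41 ± 0.15, edgeR FDR 0.0469) and lower in HGV than in LGV (-0.55 ± 0.13). Among co-receptors and iron sensors, NEO1, a receptor for hemojuvelin (0.94 ± 0.13), and RGMB, a relative of hemojuvelin (0.87 ± 0.14), rose with VPA in LG. Both also rose with VPA in HG (0.38 ± 0.11 and 0.39 ± 0.12). NEO1 and RGMB were lower in HGV than in LGV (-0.40 ± 0.13 and -0.45 ± 0.13). RGMA, another relative of hemojuvelin, had 2, 7, 19 and 130 reads in LG, HG, LGV and HGV. TFRC, the receptor for transferrin uptake, was lower (-0.65 ± 0.14) and HFE, a partner of TFR2, higher (0.63 ± 0.23, edgeR FDR 0.0487) in HG than in LG. Under VPA neither glucose difference was called (TFRC -0.15 ± 0.17, HFE 0.40 ± 0.22). SMAD4, the shared partner, fell with VPA in both media (-0.46 ± 0.13 in LG, -0.66 ± 0.11 in HG). SMAD9 fell with VPA in HG (-0.84 ± 0.16), beside the -1.31 of SMAD1. With VPA in LG, SMAD9 was not called (-0.38 ± 0.23), and it was higher in HG than in LG (0.61 ± 0.20), with overlapping libraries. SMAD5, which the receptors also phosphorylate, was not called with VPA (0.21 ± 0.12 in LG, 0.18 ± 0.13 in HG). Its means were 52.4, 53.7, 60.3 and 61.0 CPM in LG, HG, LGV and HGV, above those of SMAD1 and SMAD9. CPM is not scaled by transcript length, so that order is one of reads and not of transcripts.

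Among the inhibitors, 5 of 13 tested were higher and 2 lower with VPA in LG, and 6 of 14 were higher and 2 lower with VPA in HG. Without LG replicate 3, BAMBI lost its lower call in LG (FDR 0.159) and SKI gained one (FDR 0.0304). The shares of all genes were 21.7% higher and 19.9% lower in LG and 25.8% and 20.2% in HG, so the counts of lower inhibitors were not above them. FST, which encodes follistatin, a secreted antagonist of activins and BMPs, was at 507 CPM in LG and 458 CPM in HG. It fell with VPA, with log2 fold changes of -1.27 ± 0.13 in LG and -2.02 ± 0.10 in HG, and is named after its values were seen. GREM1, which binds BMPs outside the cell, rose with VPA by 2.98 ± 0.34 in LG and 2.89 ± 0.31 in HG, from 52 reads in LG and 27 in HG to 391 and 218. FAM132B, which encodes erythroferrone, a hormone that sequesters BMPs, had 14, 12, 41 and 176 reads in LG, HG, LGV and HGV. SMURF1, a ubiquitin ligase of SMADs, was lower in HG than in LG (-0.59 ± 0.14). Of the other targets and partners of ID proteins, ATOH8 rose with VPA (1.49 ± 0.46 in LG, 2.01 ± 0.33 in HG), from 20 and 23 reads to 54 and 101. ID4, the remaining member of the ID family, was highest in HGV with 97 reads, against 19, 25 and 32 in LG, HG and LGV. TCF12, a helix-loop-helix partner of ID proteins, was lower in HGV than in LGV (-0.65 ± 0.15).

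Of inputs to hepcidin other than BMP, IL6R, the receptor for interleukin-6, had the same VPA value in both media, -1.18 ± 0.14 in LG and -1.18 ± 0.11 in HG. CREB3L3, a stress-activated hepatic factor, was called higher in all 4 comparisons, between 0.43 and 0.49, but without LG replicate 3 not for HG against LG (0.35, FDR 0.114) or LGV against LG (0.36, FDR 0.0749). Of 12 iron-handling genes, 8 were lower and 1 higher with VPA in LG, and 6 were lower and 1 higher with VPA in HG, where 19.9% and 20.2% of all genes were lower. The 1 that was higher in both was SLC40A1, ferroportin, at 1.12 ± 0.16 with VPA in HG. CP, the ferroxidase ceruloplasmin, rose with glucose (1.20 ± 0.19 without VPA, 1.20 ± 0.14 with it) and fell with VPA (-0.99 ± 0.19 in LG, -0.95 ± 0.16 in HG), the same signs as TFR2. Without LG replicate 3 the value of CP was 1.53 for HG against LG and -0.636 for LGV against LG, both called. Of the iron-handling genes called lower for LGV against LG, TF (FDR 0.145) and IREB2 (FDR 0.0623) were not called without that library.

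**Figure D4:**
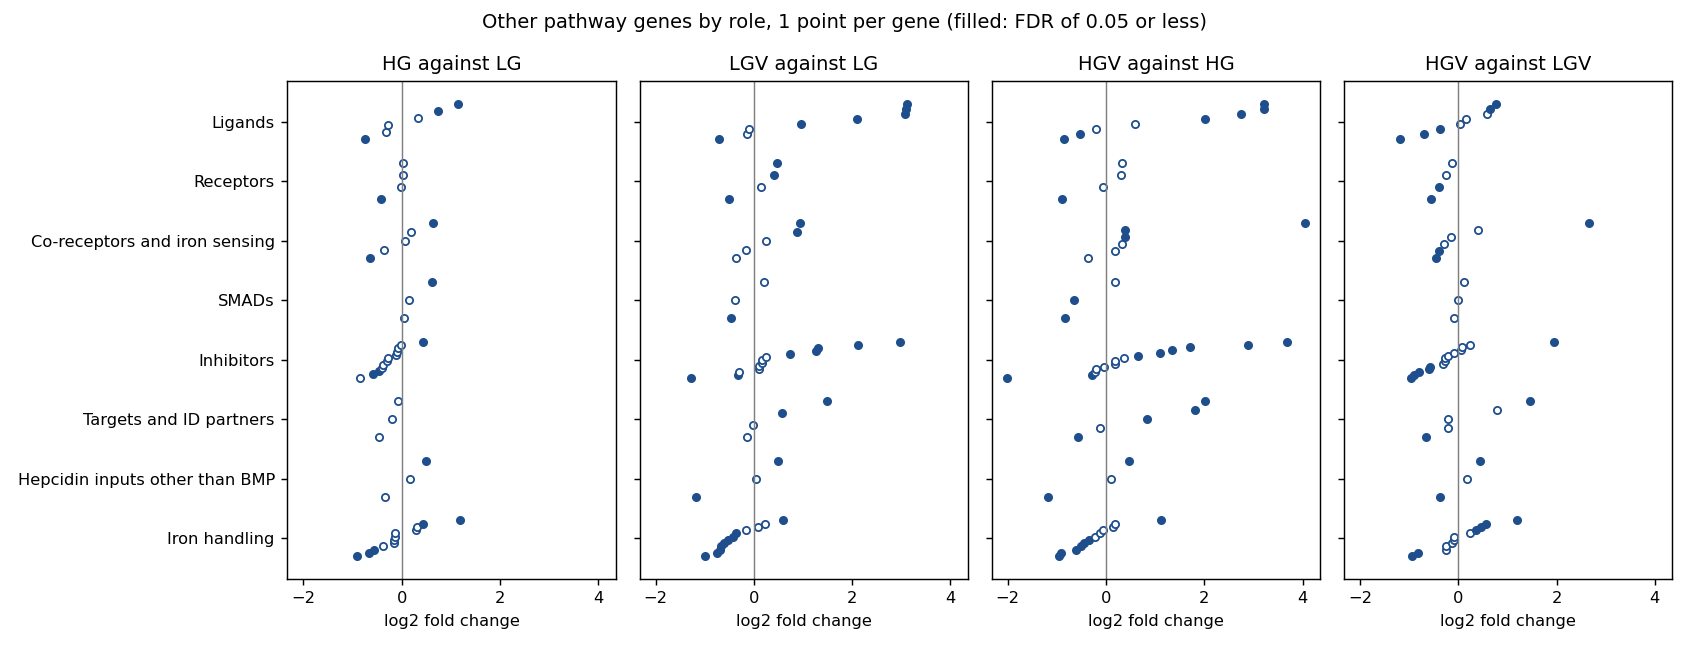
Fitted log2 fold changes of the listed genes by role in 4 comparisons, with 1 point per gene, filled for an FDR of 0.05 or less. Ligands and inhibitors extend beyond 2 in both VPA panels, and most iron-handling genes lie to the left of 0 there.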

How the data were processed

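The authors extracted RNA from HepG2 cells, selected poly(A) RNA, built strand-specific libraries, trimmed reads with the FASTX Toolkit, aligned them with STAR to GRCh37 (Ensembl annotation) and counted reads per gene with featureCounts. Genes with a mean under 10 reads were omitted, so the deposited values are raw counts of 16389 genes in 12 libraries. The submitters' processing notes also name bcl2fastq 2.17.1.14. Each group held 3 libraries, and since the labels do not say that replicates were separate cultures, p-values measure only the spread between these libraries.

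Each comparison was fitted on its own libraries with the quasi-likelihood F test of edgeR 4.0.16 (R 4.3.3, limma 3.58.1) and TMM factors on genes with a mean of at least 10 reads in the compared libraries. FDRs are Benjamini-Hochberg adjusted over all tested genes, and a call is an FDR of 0.05 or less. The interaction used all 12 libraries. The SE beside a log2 value was derived from the test, as the absolute log2 value divided by the square root of the F statistic. The fitting code was tested on simulated data. The alternatives were size factors as in DESeq2 (RLE), library size only, the edgeR likelihood ratio test, the DESeq2 1.42.0 Wald test, no filter, a replicate block, a single fit of all libraries, and leaving out each library. Depth limits the rarest genes: HAMP had 13 reads in its poorest library.

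The 10 genes, the pathway list and the markers were chosen with earlier results of these data known. In each role of the list, the text names from the 2 called genes with the largest absolute log2 fold change in a comparison. BMP6, SLC40A1, FST and SMAD5 were added after their values were seen. Positions are from GENCODE v44 lifted to GRCh37, and levels per kilobase use its canonical transcript.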

Additional observations from a re-analysis of the deposited data

How the results depend on the processing

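Of 340 fitted values of the 10 genes under alternatives that keep all libraries, 310 kept their direction and their side of the threshold, as did 319 of 360 with 1 library left out. For listed genes, the same was followed for the 2 largest called in each role, and for BMP6, FST and SLC40A1 where called. With all libraries kept, 414 of 427 of their values were unchanged in this sense. With 1 library left out, 305 of 364 were, and 59 lost their call. The DESeq2 Wald test called 2 of the 10 genes for HG against LG, and the replicate block and the single fit of all libraries called 4 each for LGV against LG. In the interaction, library size only called 1 gene, the likelihood ratio test 202, the DESeq2 Wald test 162 and the replicate block 13. Members called there were 3 with the likelihood ratio test and 1 with DESeq2, and listed genes 1 with each.

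Leaving out 1 library gave 1933 to 5338 genes called for HG against LG, the extremes being without LG replicate 1 and without LG replicate 3. Of the 10 genes it gave 2 to 6 calls for HG against LG, 2 to 5 for LGV against LG and 0 to 3 for the interaction, and of the listed genes 7 to 23 for HG against LG and 0 to 1 for the interaction. The interaction called 1 to 217 genes in all, the highest without LG replicate 2.

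Values that changed sign were small or rested on LG replicate 3. With library size only, ID2 in HG against LG was 0.055, and ID3 and SMAD6 in LGV against LG were 0.14 and 0.023. With the replicate block, ID3 in LGV against LG was 0.0555. SMAD7 in LGV against LG, 0.0002504 with all libraries, was -0.0025 with RLE size factors, -0.0028 with DESeq2, -0.0045 with no filter, -0.011 with the replicate block and -0.0077 with the single fit. With 1 library left out, HG against LG ran from -0.13 to 0.20 for ID2, -0.0235 to 0.63 for ID3, -0.018 to 0.34 for SMAD6 and -0.0121 to 0.28 for BMPR2. LGV against LG ran from -0.90 to 0.17 for ID1, -0.25 to 0.45 for ID3, -2.17 to 0.12 for HAMP, -0.27 to 0.13 for SMAD6 and -0.14 to 0.13 for SMAD7. The interaction ran from -0.0741 to 0.21 for TFR2. Apart from leaving out LG replicate 3, the cause of these changes was not tested.

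Whether the replicate numbers pair the samples was not settled by these data. Correlations of same-numbered libraries' deviations ran from -0.156 to 0.00539 for HG against LG and -0.201 to 0.295 for LGV against LG. They ran from -0.127 to 0.241 for HGV against HG and 0.026 to 0.195 for HGV against LGV. For libraries of different numbers the ranges were -0.0596 to 0.122, -0.387 to 0.409, -0.353 to 0.275 and -0.144 to 0.102, in the same order. With a replicate block, 3351, 6971, 8229 and 7308 genes were called in these comparisons, in that order, against 3813, 6638, 7456 and 6604 without it.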

Other observations

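Over the means of the 4 groups, each centred on the log2 scale, the genes whose pattern was nearest to that of ID1 among 13467 genes with a mean of at least 1 CPM were RP11-1017G21.5, AC062029.1 and TTC30B, with root mean square differences of 0.106, 0.135 and 0.141. TTC30B, a component of ciliary transport, was at 0.702, 1.73, 0.691 and 3.38 CPM in LG, HG, LGV and HGV. Among the other 9 genes described, ID3 was nearest to ID1, at rank 184 with 0.485.

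The genes nearest to HAMP were ASF1B, a histone chaperone, SLC25A21-AS1 and CYP4F2, a fatty acid hydroxylase, with differences of 0.615, 0.719 and 0.734. ASF1B was at 3.74, 11.9, 2.65 and 21.8 CPM in LG, HG, LGV and HGV. ID1 was the 13th nearest gene to HAMP, with a difference of 0.877. Likeness rests on 4 group means, of which those of HAMP and ID1 in LG rest largely on replicate 3, at 6.95 and 2.96 times the mean of the other LG libraries.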
